A study of Mus musculus with 14 samples.

Results

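CD4 and CD8 are the coreceptors that hold a T cell's receptor to MHC class II or class I, and the factors ThPOK and RUNX3 set which of them a T cell keeps. The 5 genes described here are Cd4, Cd8a and Cd8b1, which encode the coreceptor chains, Zbtb7b, which encodes ThPOK, and Runx3. They were chosen by symbol, as 5 of the 32285 genes in the single-cell tables. Developing thymocytes first make both coreceptors. Cells that become helper T cells then keep CD4 under ThPOK, while cells that become cytotoxic T cells keep CD8, a dimer of the Cd8a and Cd8b1 products, under RUNX3, which also silences Cd4. RUNX3 is also known from NK cells and from many activated T cells.

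The cells came from white nodules of 7 cKO mice on a C57BL/6J background, all carrying Eif3e fl/fl, the Cγ1-Cre driver and a Rosa26-YFP LSL reporter. The driver is expressed from the locus of an immunoglobulin heavy chain constant region, so it was built to act in activated B cells, and no healthy control was profiled. Each mouse gave 1 sample, called a nodule here, also where it held more than 1 organ. Each sample had single-cell RNA counts and either B cell receptor (BCR) or T cell receptor (TCR) sequences from the same cells. BCRs were read in mouse 27 (liver, 12 months), mouse 29 (lung, 12 months), mouse 31 (spleen, 13 months), mouse 33 (thymus, 16 months) and mouse 34 (lung and thymus, 9 months), and TCRs in mouse 30 (liver, 14 months) and mouse 32 (spleen, 12 months). The tumor of mouse 27 was a transplant in a Rag2-/- host, a strain that makes no T or B cells of its own.

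T cells fell into 4 populations. A T clone held the cells of the dominant TCR family of a TCR nodule, with 2107 cells in mouse 30 and 4928 cells in mouse 32. Non-clonal T cells, 389 and 447 in the same mice, carried another TCR. Uncalled T cells, 6818 and 2860, lay in T-like clusters of these nodules without a TCR call, and may include clone cells whose receptor was missed. Bystander T cells, 10641 in all, lay in T-like clusters of the 5 BCR nodules. All 9 listed T cell markers were detected in every population of every mouse, and in the B clones too. In the T cell populations they summed to 1276 to 3436 CPM (the unique molecule counts, or UMIs, of a gene scaled to a common total over the same cells), against 8.53 to 59.99 CPM in the B clones of the BCR nodules. T-like clusters were named with these same markers, so high sums in them follow in part from the naming. Libraries held 19264039 to 123456962 UMIs over all deposited barcodes, and the median T cell held 1131 to 3782 UMIs, so most coreceptor transcripts of a cell went uncounted. Of all barcodes, 3129 occurred in more than 1 library. Clusters with markers of both T and B cells, 553 cells in all and 398 of them from mouse 33, were kept out of the T cells. Of clone cells, 0.712% in mouse 30 and 6.62% in mouse 32 lay outside T-like clusters. They were kept in the clone sums, while the other T cell populations came from T-like clusters only. In mouse 32 these 326 cells were deep, with 7216102 of the 27946071 UMIs of the clone. Of them, 152 lay in an unnamed cluster led by Car1 and Car2, 96 in a neutrophil-like and 60 in an erythroid-like cluster. They held 38.7 CPM of Cd4, against 213 CPM in the clone cells of T-like clusters. Their UMIs enter the levels, ratios and tests of that clone below.

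The TCR chains below identify the clones and the 2 largest expanded clonotypes beside them, whose coreceptor transcripts are described further on. Each is the CDR3 coding sequence as deposited, 5′ to 3′, in lower case throughout. In mouse 32, 3617 cells carried the first and 3110 the other alpha chain beside the 4794 with the beta chain, and cells with any of the 3 were counted as its clone.
Clone of mouse 30, beta (TRBV1, TRBJ2-1): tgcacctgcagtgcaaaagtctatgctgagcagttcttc
Clone of mouse 30, alpha (TRAV9-2, TRAJ21): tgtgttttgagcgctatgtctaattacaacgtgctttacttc
Clone of mouse 32, beta (TRBV26, TRBJ2-5): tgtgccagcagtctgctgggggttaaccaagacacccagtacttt
Clone of mouse 32, alpha (TRAV6N-7, TRAJ30): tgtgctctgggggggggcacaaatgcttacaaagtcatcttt
Clone of mouse 32, other alpha (TRAV14D-3-DV8, TRAJ17): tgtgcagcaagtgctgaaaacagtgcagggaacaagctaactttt
Cd4-bearing clonotype of mouse 30, beta (TRBV16): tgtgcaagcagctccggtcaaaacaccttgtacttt
Cd8-bearing clonotype of mouse 32, beta (TRBV15): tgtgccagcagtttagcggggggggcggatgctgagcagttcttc

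The genes lie on 3 chromosomes of GRCm38.p6. Cd8b1 (ENSMUSG00000053044, chr6:71322788-71337492) and Cd8a (ENSMUSG00000053977, chr6:71373427-71379171) are neighbours, and Cd4 (ENSMUSG00000023274, chr6:124864693-124888247) is farther along the same chromosome. Zbtb7b (ENSMUSG00000028042) spans chr3:89377644-89393673 and Runx3 (ENSMUSG00000070691) chr4:135120645-135177990. RefSeq promoters were matched for 3 of the 5 genes. They were searched for the RUNX motif TGTGGT on both strands (ACCACA on the other) because RUNX proteins are the factors in question. In the 250 bases before the start it occurred in 14.0% of 32851 mouse promoters and at least 2 times in 1.27%. It occurred 2 times before the distal start of Runx3 and 1 time before the inner start of Zbtb7b, and not before the start of Cd8a or before the other listed start of Runx3 or Zbtb7b. These 2 windows are printed with the motif in capitals. Counts per gene do not show which start was used, and a match is a description of letters only.
Runx3, distal start (chr4:135120395-135120644, plus strand): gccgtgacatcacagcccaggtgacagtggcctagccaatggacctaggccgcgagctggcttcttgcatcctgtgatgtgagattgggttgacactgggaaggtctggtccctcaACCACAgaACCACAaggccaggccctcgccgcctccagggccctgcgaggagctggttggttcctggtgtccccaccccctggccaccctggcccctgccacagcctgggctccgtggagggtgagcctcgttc
Zbtb7b, inner start (chr3:89387672-89387921, minus strand): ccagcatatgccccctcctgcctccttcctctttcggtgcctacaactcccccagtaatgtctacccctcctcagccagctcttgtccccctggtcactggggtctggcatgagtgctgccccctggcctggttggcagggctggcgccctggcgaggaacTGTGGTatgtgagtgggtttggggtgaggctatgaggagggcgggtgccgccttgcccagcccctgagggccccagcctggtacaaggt

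Both T clones carried Cd4 and almost no Cd8 transcripts. Cd4 stood at 179 CPM (95% Poisson interval 168 to 191) in the clone of mouse 30 and at 168 CPM (163 to 173) in that of mouse 32. Cd8a had 0 UMIs in 2107 clone cells of mouse 30, which allows up to 0.553 CPM, or 0.142% of cells with a counted UMI (not of cells that express the gene), and 20 UMIs, 0.716 CPM, in mouse 32. Cd8b1 stood at 1.84 CPM and 1.47 CPM. The B clones, which should lack all 3 genes, lie in other libraries. There Cd4 stood at 0.350 to 2.31 CPM, Cd8a at 0.165 to 2.47 CPM and Cd8b1 at 0.474 to 4.88 CPM. The Cd8 levels of the T clones did not exceed these ranges, and their Cd4 did. In the library of mouse 30, neutrophil-like cells held 13.4 CPM of Cd4 and 0 UMIs of Cd8a and of Cd8b1, which allows up to 1.34 CPM of each. In the library of mouse 32 itself, erythroid-like and neutrophil-like cells held 0.389 and 0.387 CPM of Cd8a and 0.544 and 1.55 CPM of Cd8b1. Of the 10 Cd8b1 UMIs in the clone of mouse 30, 8 lay in 2 cells. Within T-like clusters alone, Cd4 reached 181 CPM for the mouse 30 clone and 213 CPM for the other. A Cd8b1 UMI was seen in 0.190% of clone cells in mouse 30 (median depth 1992 UMIs) and 0.649% in mouse 32 (3782 UMIs), against 0.393 to 2.12% of B clone cells at 9367 to 13763 UMIs. Intervals and limits cover counting error only.

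**Figure D1:**
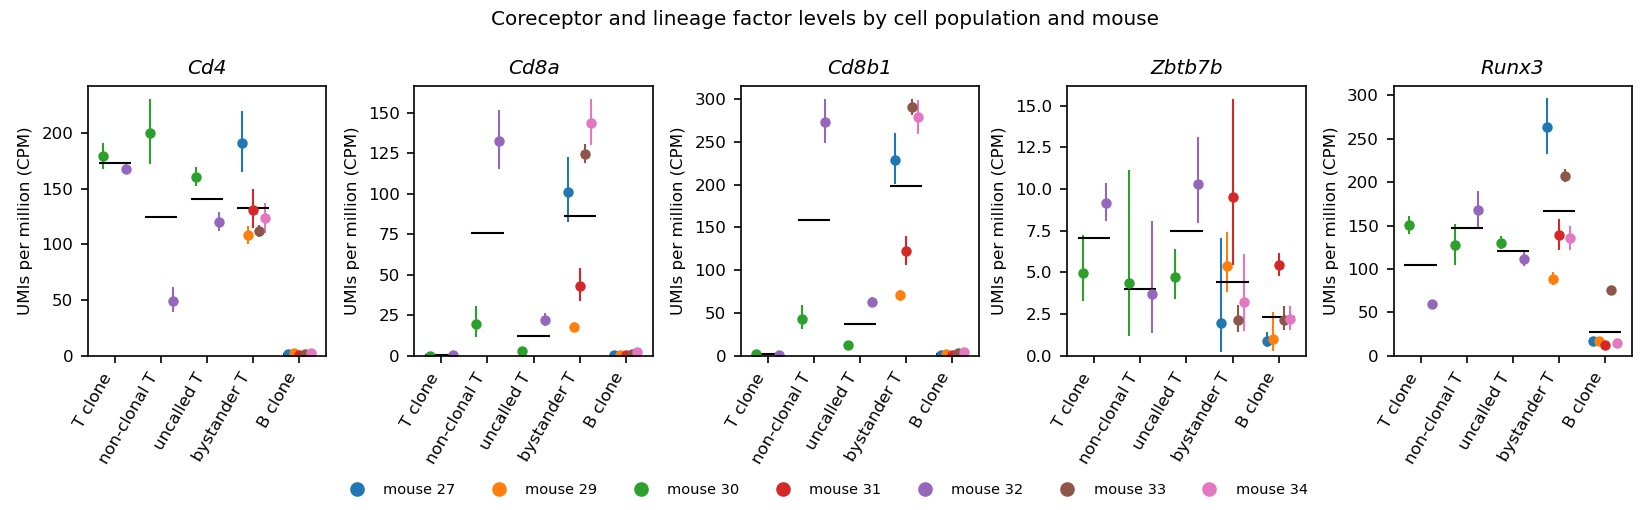
CPM of each gene in each mouse (points, colored by mouse) by cell population on the horizontal axis. Vertical bars are 95% Poisson intervals and black lines are means over mice, and the scale of the vertical axis differs between genes. Cd8a and Cd8b1 are near 0 in both T clones and in the B clones, and between 17.7 and 290.2 CPM in non-clonal and bystander T cells.

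The T cells beside the clones differed between the 2 TCR nodules. In mouse 30, non-clonal T cells held 199.7 CPM of Cd4, 19.5 CPM of Cd8a and 43.4 CPM of Cd8b1. In mouse 32 they held 49.6, 133 and 273 CPM. Cd4 therefore prevailed beside the clone in the liver nodule and Cd8 beside the clone in the spleen nodule, and the 2 mice do not overlap in any of the 3 genes. Cd8a was at least 35.3-fold higher in non-clonal cells than in the clone of mouse 30, set against a limit of 3 counts, and 185-fold higher in mouse 32. Cd8b1 was 23.5-fold and 186-fold higher. Cd4 in the clone was 0.897 times its level in non-clonal cells in mouse 30 and 3.38 times in mouse 32.

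Uncalled T cells lay between in their Cd8 levels. Their Cd4 was 161 CPM in mouse 30 and 120 CPM in mouse 32, their Cd8a 2.81 and 22.2 CPM, and their Cd8b1 12.5 and 62.7 CPM. In mouse 30 their Cd4 was thus below that of both the clone and the non-clonal cells. In each mouse their Cd8 levels were above those of the clone and below those of the non-clonal cells, without overlap of the Poisson intervals.

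Bystander T cells of the BCR nodules held both coreceptors. Their Cd4 ranged least, with 108 CPM for mouse 29, 112 CPM for mouse 33, 123 CPM for mouse 34, 131 CPM for mouse 31 and 191 CPM for mouse 27. Neighbours in that order overlap in their Poisson intervals up to mouse 31, and mouse 27 stands above the other 4. Cd8a was 17.7 CPM for mouse 29, 43.3 CPM for mouse 31, 101.3 CPM for mouse 27, 125 CPM for mouse 33 and 144 CPM for mouse 34, with overlapping intervals between the last 3 neighbours only. Cd8b1 was 70.4, 122, 229, 290.2 and 279 CPM in the same order of mice. Mice 29 and 31, a lung and a spleen nodule, were thus low in both Cd8 genes, and both nodules that held thymus were high. In mouse 29 only 42.75% of these cells held a Cd3 UMI and the T cell markers summed to 1276 CPM, against 79.35 to 92.2% and 2772 to 3436 CPM in the other 4 mice, and the part of this in its low levels, Runx3 included, was not tested. With 1 nodule per mouse, organ and mouse cannot be told apart, and in summed levels fewer cells of a type and less RNA per cell cannot be told apart either.

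The 2 Cd8 chains kept a similar proportion outside the clones. Cd8b1 made up 65.9 to 79.9% of Cd8a plus Cd8b1 UMIs in the 5 bystander populations and 69.0 and 67.3% in the non-clonal cells of mice 30 and 32. In uncalled T cells it was 81.6% for mouse 30 and 73.9% for mouse 32. In the clones it was all 10 UMIs for mouse 30 and 67.2% of 61 UMIs for mouse 32.

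Sorting single cells by transcript gave the same picture. A cell with at least 1 Cd4 UMI and no Cd8a or Cd8b1 UMI was put in the CD4 class, and the converse in the CD8 class. In the clone of mouse 30, 672 cells were in the CD4 class, 2 in the CD8 class and 2 held both, and in mouse 32 these were 2480, 21 and 22 cells. The CD4 class made up 99.7% (95% exact interval 98.9 to 99.96) and 99.2% (98.7 to 99.5) of clone cells with 1 coreceptor. Neither coreceptor was counted in 67.9 and 48.8% of clone cells. That share moved with depth. From the shallowest to the deepest of 4 equal groups of cells, the share with a Cd4 UMI went from 14.99 to 54.6% in mouse 30, at median depths of 1236 and 3869 UMIs, and from 26.6 to 75.6% in mouse 32, at 2139 and 8701 UMIs. A cell with no Cd4 UMI is therefore not shown to lack CD4.

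Thinned to 1000 UMIs per cell, with 103 and 22 shallower cells left out, 15.2% of clone cells in mouse 30 and 16.7% in mouse 32 were in the CD4 class, against 31.9 and 50.3% before thinning. Among non-clonal cells, thinned shares of the CD4 class were 16.7 and 6.29%, and of the CD8 class 3.77 and 20.4%, with 18 and 2 cells left out. At equal depth the CD4-class shares of both clones and of the non-clonal cells of mouse 30 lay close together, above that of the non-clonal cells of mouse 32.

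Outside the clones, the CD4 class made up 84.8% of cells with 1 coreceptor in the nodule of mouse 30 but 28.5% for mouse 32. The 5 BCR nodules lay between, with 51.2% for mouse 27, 62.4% for mouse 29, 66.0% for mouse 31, 40.6% for mouse 33 and 36.3% for mouse 34. The mean was 51.3% ± 13.0 (SD, n = 5) in BCR nodules and 56.7% ± 39.8 (SD, n = 2) in TCR nodules (difference −5.37 percentage points, exact two-sided permutation test over mice, p = 0.810, where 0.0476 is the smallest p that 5 against 2 mice allow). The Cd4 share of all coreceptor UMIs was 36.0% ± 14.4 and 43.5% ± 46.1 (difference −7.49 points, exact permutation p = 0.762). The 2 TCR mice lay on either side of all 5 BCR mice in both measures, and leaving out mouse 30 turned the differences to 22.8 and 25.1 points, while without mouse 32 they were −33.5 and −40.1 points.

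**Figure D2:**
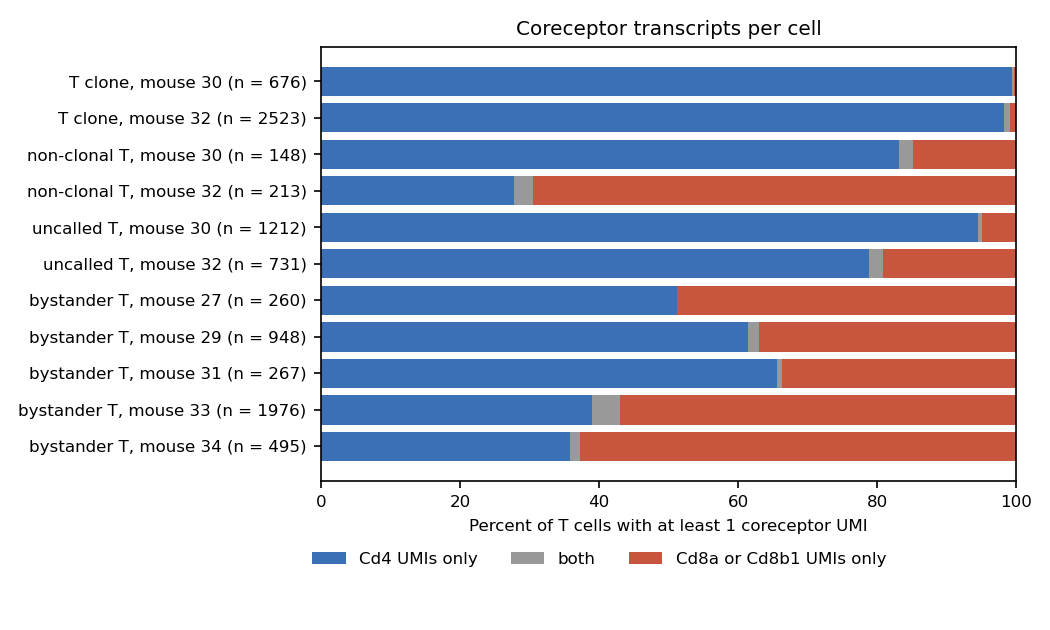
Percent of T cells with at least 1 coreceptor UMI (horizontal axis) that held Cd4 only, Cd8a or Cd8b1 only, or both, by population and mouse, with the number of such cells. The T clones are almost wholly in the Cd4 class, at 99.7 and 99.2% of cells with 1 coreceptor, while bystander T cells range from 36.3 to 66.0%.

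Cells with both coreceptors were few. They made up 0 to 3.95% of coreceptor-bearing bystander T cells, with the most in the thymus nodule of mouse 33, where 78 cells held both. Their median depth was 6105 UMIs, against 3500 in the CD4 class and 4369 in the CD8 class of that mouse. After thinning, cells with both were 1.00% of coreceptor-bearing cells there. Rag1 and Rag2, which thymocytes use to rearrange their receptors, had 0 UMIs in all clone, non-clonal and bystander T cells, and Ptcra, the pre-TCR alpha chain, had 7. Dntt, a DNA polymerase of early lymphocytes, had 62 UMIs, of which 56 lay in clone cells of mouse 32 with neither coreceptor, and 5 clone cells of that mouse held any. The part of cell pairs in the cells with both coreceptors was not tested.

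Most expanded clonotypes beside the clones showed transcripts of 1 coreceptor, mostly in few cells each. Of clonotypes with at least 5 cells, mouse 30 had 12, with 150 cells, and mouse 32 had 8, with 124 cells. Over both mice, 13 clonotypes had at least 2 coreceptor-bearing cells. In 11 of the 13 these all had the same coreceptor, and 96 of their 98 cells were in the commoner class of their clonotype. That class is chosen from the same cells, and 36 of the 98 belong to 1 clonotype. Among all non-clonal cells with 1 coreceptor, the CD4 class already made up 84.8% in mouse 30 and 28.5% in mouse 32. The TRBV15 clonotype of mouse 32 printed above was the clearest case: all 36 of its cells were in the CD8 class, with 46 Cd8a, 103 Cd8b1 and 0 Cd4 UMIs and 219 CPM of Runx3. The TRBV16 clonotype of mouse 30 had 38 cells, of which 15 were in the CD4 class, 1 held both coreceptors and 22 held neither, with 23 Cd4 UMIs and 1 Cd8b1 UMI. In mouse 30 no clonotype of this size held Cd8 transcripts only, while 2 did in mouse 32. In that mouse 2 of the Cd4-bearing clonotypes share their beta CDR3.

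**Figure D3:**
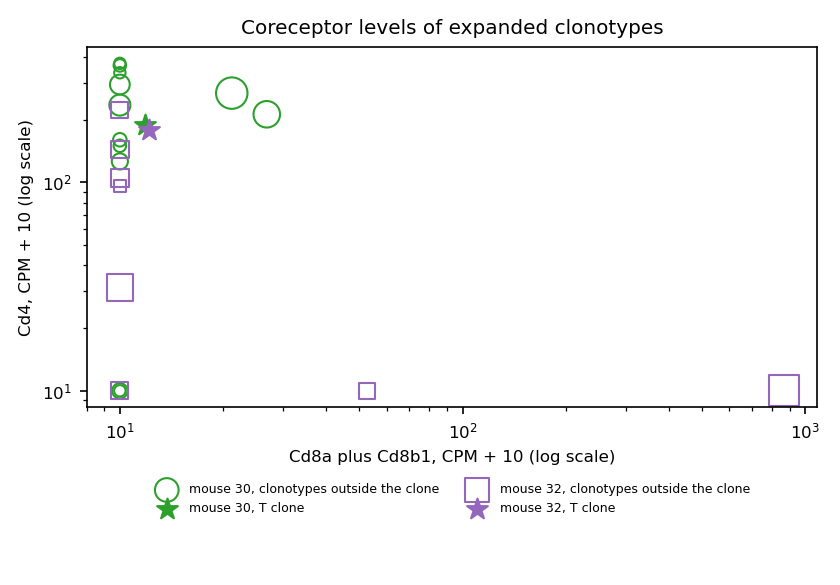
Cd4 CPM + 10 (vertical axis) against Cd8a plus Cd8b1 CPM + 10 (horizontal axis), both on log scales, for each clonotype of at least 5 cells outside the clones (open symbols, area in proportion to cells) and for the 2 clones (stars). Clonotypes lie along 1 axis or the other, with the clonotype of 36 cells in mouse 32 at 858 CPM of Cd8 and 0 CPM of Cd4.

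The lineage factors were less clearly split than the coreceptors. Zbtb7b was scarce in T cells of every kind. It stood at 4.98 CPM (27 UMIs) in the clone of mouse 30 and 9.16 CPM (256 UMIs) in that of mouse 32. In non-clonal cells it was 4.34 and 3.72 CPM, from 4 and 6 UMIs. Bystander T cells held 1.95 CPM (mouse 27), 2.12 CPM (mouse 33), 3.21 CPM (mouse 34), 5.40 CPM (mouse 29) and 9.49 CPM (mouse 31), and neighbours in this order overlap in their intervals. A Zbtb7b UMI was seen in 0.362 to 4.99% of cells of these populations. The B clones held 0.880 to 5.44 CPM, and macrophage or monocyte-like cells 3.43 to 10.4 CPM, so at this depth Zbtb7b did not set T cells apart from other cells of the nodules. The clone and the uncalled T cells of mouse 32 stood above every B clone without overlap of intervals, but the neutrophil-like cells of that library held 10.01 CPM.

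Runx3 was abundant, also in the Cd4-bearing clones. It stood at 151 CPM (140.5 to 161) in the clone of mouse 30 and at 59.5 CPM (56.6 to 62.4) in that of mouse 32, or 66.1 CPM within T-like clusters alone. Non-clonal cells held 127 and 168 CPM, and uncalled cells 130.4 and 111 CPM. Bystander T cells held 88.9 CPM (mouse 29), 135 CPM (mouse 34), 139 CPM (mouse 31), 207 CPM (mouse 33) and 263 CPM (mouse 27), with mice 34 and 31 overlapping in their intervals. The clone of mouse 32 was thus the lowest of all T cell populations, and that of mouse 30 lay within the range of the others. Runx3 in the clone was 1.19 times that of non-clonal cells in mouse 30, with overlapping Poisson intervals, and 0.354 times in mouse 32, without overlap.

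Within the clones, Runx3 also varied between groups of similar cells. In mouse 32, the 3 largest T-like clusters of the clone held 91.0, 30.2 and 121.5 CPM of Runx3 at 184, 229 and 226 CPM of Cd4. The 1629 cells with the least Runx3 had the most Zbtb7b, 13.1 CPM against 10.9 and 5.94 CPM, with overlapping Poisson intervals between 13.1 and 10.9 CPM. In mouse 30 the 3 largest held 133, 197 and 149 CPM of Runx3 at 3.53, 8.45 and 4.91 CPM of Zbtb7b. There the cells with the most Runx3 also had the most Zbtb7b, from 11 UMIs and with overlapping intervals. Clusters were made from 2000 variable genes without the 5 members, and these levels are given with no test. Per cell, Cd4 and Runx3 were not exclusive: after thinning, a Runx3 UMI was seen in 10.8% of clone cells with Cd4 and 13.9% of those without in mouse 30, and in 7.08 and 6.48% in mouse 32.

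To set the clones against other T cells of the same nodule, UMIs were summed per mouse and population and compared with edgeR's quasi-likelihood test, with the mouse as a block and Benjamini-Hochberg adjustment over all genes. Against non-clonal T cells, no gene passed an adjusted p of 0.05 (0% of 11514 tested, with 1142 at an unadjusted p under 0.05, and 231 passed with DESeq2). Cd8a differed most among the 5 genes, at a log2 fold change of −7.83 ± 0.50 (SE, adjusted p = 0.0732 by edgeR and 1.55e-20 by DESeq2), followed by Cd8b1 at −6.56 ± 0.90 (0.137 and 1.70e-15). When the clone of mouse 32 was defined by 1 alpha chain only, which leaves 60 of its cells outside, 25 genes passed, Cd8a among them (adjusted p = 0.0352). Cd4 (0.62 ± 0.50, adjusted p = 0.753), Zbtb7b (0.65 ± 0.60, adjusted p = 0.786) and Runx3 (−0.80 ± 0.50, adjusted p = 0.686) did not pass with either tool. With 2 mice and 0 Cd8a UMIs in the clone of mouse 30, the size of the Cd8 gap rests on the values per mouse given above, not on these standard errors.

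Against CD4-class non-clonal cells, 123 in mouse 30 and 59 in mouse 32, the clones were compared for genes other than the 3 coreceptors, which choose that class. Here 189 of 11102 genes passed (1.70%), 71 of them higher (0.640%) and 118 lower (1.06%) in the clones. Runx3 (−0.52 ± 0.42, adjusted p = 0.995) and Zbtb7b (1.80 ± 1.62, adjusted p = 0.999) did not. Runx3 stood at 158 CPM in the CD4 class of mouse 30 against 151 CPM in its clone, and at 103 against 59.5 CPM in mouse 32. Zbtb7b had 1 and 0 UMIs in those CD4-class cells, so its level there was not measurable. Of the cytotoxic genes, 8 of 16 tested were lower in the clones and 1 was higher, Xcl1, a chemokine gene (named after its value was seen, 473 against 40.2 CPM), with a median log2 fold change of −2.53 against 0.09 over all genes. Eomes, a factor of cytotoxic and memory T cells, stood at 2.40 and 0.895 CPM in the clones of mice 30 and 32 against 199.6 and 51.4 CPM (log2 −6.23 ± 0.58, adjusted p = 9.55e-14), and the chemokine gene Ccl5 averaged 150.5 against 4084 CPM (−4.79 ± 0.37, adjusted p = 2.28e-17). Gzmk, a granzyme, was lower by a log2 fold change of −3.88 ± 0.89 (edgeR, adjusted p = 0.00466) and the chemokine gene Ccl4 by −3.785 ± 0.82 (adjusted p = 0.00227). The sum of the listed NK cell markers moved with this comparison. The 7 NK markers, Eomes among them, summed to 7.36 CPM in CD4-class clone cells and 12.9 CPM in clone cells with no coreceptor UMI in mouse 30, against 228 CPM in its CD4-class non-clonal cells, and to 24.7 and 29.2 CPM against 319 CPM in mouse 32. In the CD4-class non-clonal cells of mouse 30, Eomes alone gave 199.6 of the 228 CPM. In those of mouse 32, 5 of the 7 markers had 0 UMIs, which leaves Eomes and the granzyme gene Gzma. The part of NK cells in the result was not tested.

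Among the helper genes, 1 of 14 was higher and 1 lower. Il4, the helper cytokine, stood at 229 and 176 CPM in the clones against 44.1 and 51.4 CPM (1.98 ± 0.46, adjusted p = 0.00485). St8sia1, a ganglioside synthase, had 0 and 9 UMIs in the clones (mean 0.161 CPM) against 4 and 7 UMIs (mean 23.2 CPM, adjusted p = 0.00380). Of 23 lineage regulators, Tox2 alone passed, at 299 and 308 CPM against 145 and 10.3 CPM (2.19 ± 0.50, adjusted p = 0.00463). Of 17 genes of coreceptor and TCR signalling, 2 were lower, namely Cd6, a surface receptor that tunes TCR signals (−4.51 ± 0.61, adjusted p = 8.61e-08), and Lat, the adaptor that relays them (−2.48 ± 0.45, adjusted p = 1.16e-04). None of the 2 testable immature thymocyte markers passed. Without the mouse as a block 0 genes passed, with DESeq2 65 and with the clone by 1 alpha chain 41. With 2 mice, the small adjusted p-values of this comparison lean largely on a spread pooled over genes.

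Non-clonal T cells of the TCR nodules and bystander T cells of the BCR nodules were compared next. The first were limited to cells with a TCR call, while bystander T cells were all T-like cells. By edgeR, 0 of 10131 genes passed (268 at an unadjusted p under 0.05, 6 passed with DESeq2). The log2 fold changes, non-clonal over bystander, were −0.15 ± 0.46 for Cd4, −0.12 ± 0.85 for Cd8a, −0.28 ± 0.74 for Cd8b1 and −0.18 ± 0.44 for Runx3, and Zbtb7b did not reach the count filter. With the 6818 and 2860 uncalled T cells of mice 30 and 32 added to the non-clonal side, 0 genes passed. The changes were then −1.915 ± 1.02 for Cd8a, −1.82 ± 0.82 for Cd8b1 (edgeR, adjusted p = 0.624 for each), −0.09 for Cd4 and −0.52 for Runx3. Uncalled cells may include clone cells, which hold almost no Cd8 transcripts, and the part of these in the changes was not tested. The standard errors allow sizeable differences either way, and the 2 TCR mice differed from each other more than the groups did. Leaving out a mouse moved Cd8a between −2.19 and 0.66 and Cd4 between −1.37 and 0.54.

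The clearest association between coreceptor and lineage factor lay outside the clones. Runx3 was lower in CD4-class than in CD8-class cells in 6 of 7 mice. It stood at 241 against 406 CPM in mouse 27, 63.1 against 279 CPM in mouse 29, 119 against 294 CPM in mouse 31 and 64.6 against 193 CPM in mouse 34. In the TCR mice it was 158 against 413 CPM in mouse 30 and 103 against 234 CPM in mouse 32. Mouse 33, the thymus nodule, was the exception, with 219 CPM (204 to 235) in the CD4 class and 209 CPM (198 to 221) in the CD8 class. The ratio of CD8 to CD4 class was thus 1.69 to 4.43 in 6 mice and 0.956 in mouse 33. Over all mice the log2 fold change was −1.15 ± 0.21 (edgeR with mouse as a block, adjusted p = 0.0030), and 300 of 5726 genes passed (5.24%), 3.55% higher in the CD4 class and 1.69% lower, as Runx3 was.

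That call kept its direction in every alternative tried and was lost in 2. Without the mouse as a block, 6 genes passed and the adjusted p of Runx3 was 0.169 (log2 −1.07), and with classes of at least 2 coreceptor UMIs 51 genes passed and it was 0.159 (log2 −0.92). Without mouse 33 the difference was −1.46 (adjusted p = 1.60e-04). Cells with neither coreceptor held 69.3 CPM of Runx3 in mouse 30, 71.8 CPM in mouse 29, 82.1 CPM in mouse 34, 113 CPM in mouse 31, 119.5 CPM in mouse 32, 185 CPM in mouse 27 and 189 CPM in mouse 33, below the CD8 class of the same mouse in all 7, with overlapping intervals in mouse 33.

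**Figure D4:**
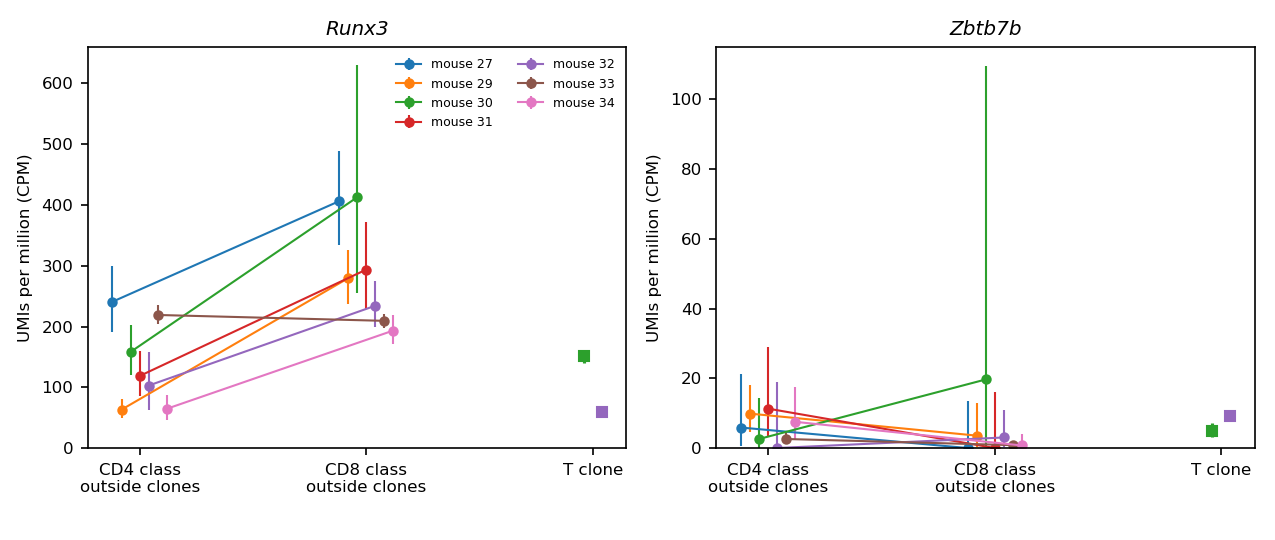
CPM (vertical axes) of Runx3 and Zbtb7b in CD4-class and CD8-class T cells outside the clones (circles joined within a mouse) and in the T clones (squares), with 95% Poisson intervals. Runx3 is higher in the CD8 class in 6 of 7 mice and level in mouse 33, while the Zbtb7b intervals of the classes overlap in all 7.

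The sum of the listed NK cell markers moved with the same classes. The 7 listed genes summed to 51.3 to 399 CPM in the CD4 class and 320 to 4298 CPM in the CD8 class, higher in the CD8 class in 7 of 7 mice. Cytotoxic T cells share several of these genes. The NK receptor gene Ncr1 had 1 UMI in all CD4-class and CD8-class cells outside the clones, and Klrb1c, which encodes NK1.1, reached 25 UMIs in the CD8 class of mouse 32 and 8 or fewer in that of each other mouse. The part of NK cells in the Runx3 difference was not tested beyond these values.

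For Zbtb7b the counts were too low for a firm comparison. CD4-class cells held 2, 10, 1, 4, 0, 9 and 5 Zbtb7b UMIs in mice 27, 29, 30, 31, 32, 33 and 34, and CD8-class cells 0, 2, 1, 0, 2, 5 and 1. As a share of Zbtb7b plus Runx3 UMIs, a balance that is comparable between cells but not a ratio of the proteins, it averaged 5.40% ± 5.36 (SD, n = 7) in the CD4 class and 1.12% ± 1.60 in the CD8 class. It was higher in the CD4 class in 5 of 7 mice (mean difference 4.28 points ± 5.99, exact two-sided sign-flip permutation test over mice, p = 0.156, smallest possible 0.0156). With classes of at least 2 UMIs, 5 mice remained and all 5 were higher in the CD4 class (9.64 points, exact permutation p = 0.0625, the smallest that 5 mice allow). Zbtb7b failed the count filter of the gene-wise test, and without a filter its log2 fold change was 1.48 (adjusted p = 0.286). In the clones the share was 3.20% in mouse 30 and 13.3% in mouse 32. It was 3.31 and 2.17% in all non-clonal cells of these mice, from 4 and 6 Zbtb7b UMIs. Those of mouse 32 held 148 CD8-class against 59 CD4-class cells, so they are not like its clone in coreceptor. In the CD4 class alone the share was 1.61 and 0%, from 1 and 0 Zbtb7b UMIs.

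The other genes of the 2 lineages sorted with the coreceptors. Of 18 cytotoxic genes tested, 14 were lower in the CD4 class and 0 higher, with a median log2 fold change of −1.44 against −0.0049 over all genes. Gzma, a granzyme, averaged 61.5 CPM in the CD4 class and 755 CPM in the CD8 class (−2.93 ± 0.44, adjusted p = 6.49e-04), although mouse 32, with 4049 CPM in its CD8 class, weighed most in that mean. Mouse 30 gave no clear direction, with 10 of 385748 UMIs in its CD4 class and 0 of 50887 in the 22 cells of its CD8 class. A limit of 3 counts allows up to 59.0 CPM there. Klrd1, Klrk1 and Klrc1, receptors shared by NK and cytotoxic T cells, were lower in the CD4 class, with log2 fold changes of −2.61, −2.53 and −2.10 (edgeR, adjusted p = 6.96e-05, 6.38e-05 and 0.00633). Of 11 helper genes, 7 were higher in the CD4 class and 0 lower, with a median of 0.73. Cd40lg, the helper ligand for CD40 on B cells, was higher in the CD4 class of all 7 mice and averaged 100.3 against 13.9 CPM (3.24 ± 0.33, adjusted p = 3.38e-05). Tnfsf8, the CD30 ligand gene, rose by 2.12, Ikzf2, which encodes Helios, by 1.65, and Tnfrsf4, which encodes OX40, by 1.60 (adjusted p = 5.99e-04, 0.00127 and 3.56e-04).

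Lineage regulators other than Runx3 and Zbtb7b changed little. Of 22 tested, Gata3, which acts upstream of ThPOK, was higher in the CD4 class (124 against 61.2 CPM, 0.97 ± 0.23, adjusted p = 0.0194), as was Tox2 (127 against 66.1 CPM, 0.83 ± 0.21, adjusted p = 0.0292), and 0 were lower. In coreceptor and TCR signalling, Cd5, an inhibitor of TCR signals (0.74 ± 0.15, adjusted p = 0.00837), and Cd2, an adhesion receptor (0.39 ± 0.11, adjusted p = 0.0496), were higher among 17 tested. The 1 testable immature thymocyte marker did not pass.

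The genes most like each member were found over 16 sums of T cells (2 clones and the 2 classes of 7 mice), which share libraries, among 8167 genes. Cd8a and Cd8b1 were nearest to each other (Pearson r = 0.997 of log2(CPM + 10)), followed for both by Gm44174 (r = 0.974 and 0.981) and Smyd1 (r = 0.914 and 0.921). Smyd1 lies at chr6:71213940-71262281, on the same stretch of the chromosome as Cd8b1. For Cd4 the nearest were 2210408F21Rik, Ebi3 and Rab11fip1 (r = 0.883, 0.880 and 0.874). For Runx3 they were Ier3, Mctp2 and Lax1 (r = 0.882, 0.835 and 0.827). For Zbtb7b, at a mean of 5.10 CPM, they were Pnisr, Ino80dos and Atp2c1 (r = 0.880, 0.863 and 0.854). Because coreceptor transcripts choose the classes, the values for Cd4, Cd8a and Cd8b1 describe that choice in part.

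Runx3 and Cd4 were not limited to T cells. Macrophage or monocyte-like cells held 58.1 to 229 CPM of Runx3 in 6 mice and 16.2 CPM in mouse 29, and 2.53 to 72.3 CPM of Cd4. T cell transcripts moved with that Cd4: the highest value, in mouse 34, came with 51.6 CPM of Cd8b1 and 13.3 CPM of Cd8a in the same cells, and 29.6 CPM of Cd4 in mouse 33 with 13.3 CPM of Cd8b1. Their part in it was not tested. Fibroblast-like cells held 4.31 and 9.96 CPM of Runx3 in mice 29 and 33. The B clones held 11.9 to 17.2 CPM of Runx3 in mice 27, 29, 31 and 34 and 75.4 CPM in mouse 33, where the other B-like cells held 76.2 CPM. Those B clone cells held 3.61 CPM of Cd8b1, against 290.2 CPM in the T cells of the same nodule.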

How the data were processed

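RNA and receptor libraries of 7 nodules were used. The authors deposited UMI counts per gene and cell, with receptor contigs per barcode. The submitters' processing notes name the builds GRCm38 and mm10, and the aligner is not given in the sources used here. For the RNA libraries the labels name a 5′ kit and the study's methods a 3′ kit, which is unresolved, and for the receptor libraries the methods name a 5′ kit.

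Cells with fewer than 201 UMIs, fewer than 101 genes or over 10% mitochondrial UMIs were removed, as the study's methods state, which kept 75503 of 77442. After scaling per cell, 2000 variable genes without the 5 members, 30 principal components and 15 neighbors, Leiden clustering (leidenalg 0.10.2, resolution 2.5, chosen after resolution 1.0 left T and B cells mixed) gave 46 clusters, 13 of them T-like. Names needed at least 3 listed markers. No doublet caller was run. A T clone was every cell with the commonest beta chain or an alpha chain held by at least 10% of those cells. The rule on alpha chains was set after a further alpha chain of mouse 32 was seen.

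UMIs were summed per mouse and population and tested with edgeR 4.0.16 (TMM, quasi-likelihood, at least 20 cells per sum, adjusted p under 0.05 by Benjamini-Hochberg over all genes), checked on simulated counts, with DESeq2 1.42.0 as an alternative. Mouse was a block wherever both sides came from the same animal. Standard errors of edgeR changes were derived from the test, as the absolute log2 fold change over the square root of its F statistic. Each mouse gave 1 nodule, so mice were the replicates of every test, and intervals cover counting error only. The edgeR p-values also draw on a spread pooled over genes, most of all in the comparisons within the TCR mice. Single values used exact permutation tests. From each gene list up to 4 genes with the largest fold change among those that passed were named, and for each member the 3 genes of highest Pearson r. Members and lists were chosen with earlier results of these data known.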

Additional observations from a re-analysis of the deposited data

Results flagged for a closer look

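Of 19 groups of mice examined for a value far from the rest, 3 held one, where chance alone flags about 1 group in 20. Cd4 in bystander T cells of mouse 27, the transplanted liver nodule, stood at 190.98 CPM, above 108 to 131 CPM in the other 4 mice. Runx3 in the B clone of mouse 33 stood at 75.433 CPM, above 11.9 to 17.2 CPM in the other 4 B clones. Zbtb7b in the B clone of mouse 31 stood at 5.436 CPM, from 264 UMIs, above 0.880 to 2.18 CPM in the others. The cause was not tested for any of the 3.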

How the results depend on the processing

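Of 236 recomputed values, 90 of the values that answer a comparison and 112 of single genes counted as unchanged. These kept their direction and side of the threshold, stayed within 1.5 times the count or, for mean CPM, moved by less than the SD over mice. That SD is a wide bound in places, such as 106 on a mean of 125 CPM for Cd4 in non-clonal T cells. For the other recomputed values named here the cause was not tested. Genes called between clone and non-clonal T cells (0) were 231 with DESeq2, 2 with RLE normalization, 352 with no filter and 25 with the clone by 1 alpha chain, a definition tried after seeing the data. Between non-clonal and bystander T cells (0), 6 were called with DESeq2, 1 with no filter and 0 to 5 with a mouse left out, 5 of them without mouse 29. Between CD4 and CD8 class (300), there were 863 with no filter, 194 with T cells by a gate on UMIs, 51 with at least 2 coreceptor UMIs and 145 to 421 with a mouse left out, the extremes without mouse 34 and mouse 27, and 149 without mouse 29. Without the replicate block the number was 6 there and 0 (instead of 189) between clone and CD4-class cells, where DESeq2 gave 65 and the clone by 1 alpha chain 41. The Runx3 call between classes was lost with no replicate block (log2 −1.07) and with at least 2 coreceptor UMIs (−0.92). With a mouse left out, non-clonal over bystander log2 changes ran from −1.37 to 0.54 for Cd4, −2.19 to 0.66 for Cd8a, −2.24 to 0.50 for Cd8b1 and −0.45 to 0.043 for Runx3, and differences between BCR and TCR nodules from −33.5 to 22.8 points for the CD4-class share and −40.1 to 25.1 points for the Cd4 UMI share. Leaving out a mouse could not be fitted for the 2 comparisons within TCR mice, and classes of at least 2 UMIs left too few cells for clone against CD4-class cells. Resolution 1.0 and clone cells of T-like clusters only were also added after seeing the data. Depth limits Zbtb7b most, with 0 to 10 UMIs per class and mouse.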
